A study of Solanum lycopersicum with 12 samples.

Results

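Among 34075 genes of tomato, 172 above a set level lay within 2-fold of wild type in slnor fruit at the start of ripening and parted later. After 7 days these stood at 0.33 or less of their starting level in wild-type fruit. After the same 7 days, slnor fruit stood at 2.5 times the wild-type level or more. The genes were chosen by ratios of group means of CPM (each count scaled to its library total), with 0.5 added to each mean. The wild-type breaker mean had to reach 5.5, the wild-type mean after 7 days had to be at most 0.33 of it, and the slnor mean after 7 days had to be at least 2.5 times that of wild type. Slnor at breaker had to lie between 0.5 and 2 times wild type. All 12 libraries entered these ratios, so the low wild-type and the higher slnor levels after 7 days are described without a test. All 172 genes passed the low-count filter of the edgeR fit.

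The libraries came from fruit of tomato (Solanum lycopersicum) cultivar Ailsa Craig, with 3 per group. The groups were slnor 7 days after breaker, wild type (WT) 7 days after breaker, slnor at breaker and WT at breaker. At breaker the first colour shows on the green fruit. The slnor line carries a CRISPR mutation of the gene NOR in the Ailsa Craig background and was grown in the same greenhouse conditions as WT. The labels say only fruit for the tissue and do not say whether the replicates were separate plants or whether slnor is more than 1 line, so the spread between libraries may be technical.

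NOR encodes a NAC transcription factor without which tomato fruit does not ripen normally. Ripening does not only switch genes on. A green fruit is a growing, partly photosynthetic organ that stores starch, builds malate, extends its walls and makes bitter steroidal glycoalkaloids, and much of that programme is turned down as chloroplasts become chromoplasts and the flesh softens.

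Library totals lay between 50714230 and 69124795 counts. Values of single genes and marker sums in CPM, and log2 fold changes, are scaled with TMM, edgeR's correction for composition, while ratios used by the rule are on library totals. Values after ± are the standard errors (SE) of log2 fold changes. The transcript of NOR itself (Solyc10g006880.3) was present throughout, at 515 to 577 CPM in slnor against 459 to 480 CPM in WT after 7 days, and at 776 to 896 CPM in slnor against 955 to 978 CPM in WT at breaker, which does not check the genotype of a small mutation. Summed CPM of 2 fruit ripening markers, the polygalacturonase gene PG2a and the MADS-box gene RIN, was 1669 to 1729 in slnor against 9805 to 9940 in WT after 7 days. PG2a made up most of this sum. On library totals with 0.5 added, PG2a in slnor stood at 0.126 of WT after 7 days, but RIN at 0.820. In these bulk samples, fewer cells of a type and less RNA per cell cannot be told apart.

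In WT, 728 genes had the required breaker level and stood at 0.33 of it or less after 7 days. Of these, 188 stood at 0.5 or less of WT in slnor already at breaker and 47 at 2 times or more, which left 493, of which the 172 members are 34.9%. The other 321, with a slnor level under 2.5 times WT after 7 days, serve as the comparison below. The limits cut through a continuum: the member with the lowest slnor ratio after 7 days stood at 2.52 and the nearest gene left out at 2.49, and 39 members had a ratio under 3. The highest WT ratio over time was 0.326 inside and 0.332 outside. The breaker ratio ran up to 1.998 inside and from 2.001 outside, and down to 0.505 inside and from 0.467 outside. The lowest breaker mean was 5.53 inside, and the highest outside was 5.43.

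**Figure D1:**
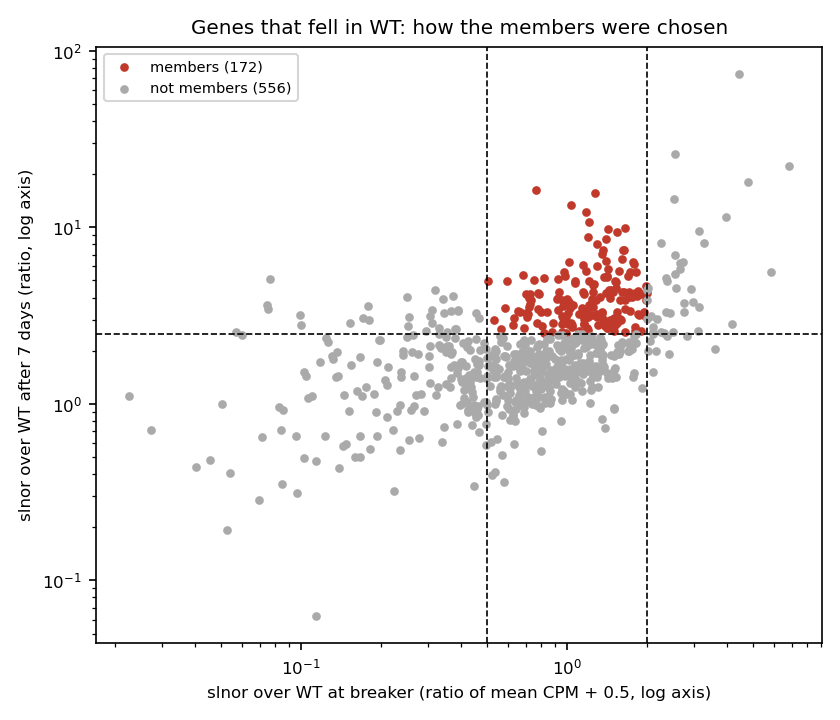
Ratio of slnor over WT after 7 days (vertical, log axis) against the same ratio at breaker (horizontal, log axis) for the 728 genes at 0.33 or less of their breaker level in WT, with 0.5 CPM added to each group mean and dashed lines at the limits of the rule. The 172 members fill the top middle field, and the field below it holds the 321 genes used for comparison.

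Together the members took 0.932% to 0.972% of all counts in the slnor libraries after 7 days, against 0.203% to 0.207% in WT after 7 days. At breaker they took 1.67% to 1.73% in slnor, against 1.25% to 1.26% in WT. The 10 members with the most counts held 61.7% of these counts in slnor after 7 days, 57.4% in WT after 7 days, 58.3% in slnor at breaker and 52.6% in WT at breaker. Summed levels are thus mostly those of a few abundant genes, and the genes below are described one by one.

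The files do not pair identifiers with names. Of 55 pairs of name and identifier drawn from published nomenclature, 51 lay on the same chromosome and within 4% of the same rank along it as the named gene in the RefSeq table of assembly SLM_r2.1, and 5 of the 51 were members (RBCS-2A, GBSS1, LOXA, GAME11, GAME12). The other 11 names of members were found the same way, after the values had been seen. Such a match shows the neighbourhood and not the gene itself, and 156 members have no name here.

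Among genes of carbon fixation and photorespiration, GLO2 (Solyc10g007600.3, chromosome 10), a glycolate oxidase gene of the photorespiratory pathway, had 98.2, 92.4 and 93.7 CPM in slnor after 7 days, against 16.6, 14.8 and 14.9 CPM in WT. Its breaker libraries had 1937, 1705 and 1902 CPM in slnor, against 1162, 1162 and 1189 CPM in WT. GLO2 was high in every breaker library and low in every later one, with no overlap between any of the 4 groups. It was 75.9-fold lower after 7 days in WT (log2 fold change −6.25 ± 0.059) and 19.5-fold lower in slnor (−4.28 ± 0.052), so slnor held it 6.15-fold above WT at a level far under that of breaker.

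RBCS-2A (Solyc03g034220.3, chromosome 3), which encodes a small subunit of the carbon-fixing enzyme Rubisco, had 64.5, 61.0 and 59.2 CPM in slnor after 7 days, against 22.8, 21.6 and 21.2 CPM in WT, and 306, 275 and 272 CPM in slnor at breaker, against 227, 214 and 224 CPM in WT. The slnor libraries lay above the WT libraries at both stages. A gene of the Cab-3 group of chlorophyll a/b-binding proteins (Solyc03g005760.1, chromosome 3), which harvest light, had 45.3, 39.6 and 44.2 CPM in slnor after 7 days, against 12.3, 12.5 and 12.2 CPM in WT. At breaker its libraries overlapped, at 254, 192 and 244 CPM in slnor against 258, 230.2 and 249 CPM in WT. RefSeq lists Cab-3 copies here, whose sequences were not compared, and reads may be split among them. FBA1 (Solyc01g110360.3, chromosome 1), a fructose-bisphosphate aldolase gene, had 28.6, 28.8 and 30.6 CPM in slnor after 7 days, against 8.38, 8.53 and 8.28 CPM in WT, and 70.1, 63.7 and 66.6 CPM in slnor at breaker, against 77.5, 75.3 and 81.2 CPM in WT. After 7 days slnor lay above WT and below its own breaker level in every library of RBCS-2A, the Cab-3 gene and FBA1. Like GLO2, these 3 genes also fell with time in slnor, by 2.21 ± 0.050 on the log2 scale for RBCS-2A, 2.42 ± 0.084 for the Cab-3 gene and 1.19 ± 0.048 for FBA1.

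Of the 5 checked light-harvesting and Rubisco genes of the list, RBCS-2A alone was a member. In slnor 3 of the 5 were called lower after 7 days and 0 higher (26.0% and 26.2% of all genes tested), and in WT 5 were lower (32.1% of all genes). PSBQ, a photosystem subunit gene, stood at 0.0368 of its breaker level in WT but missed the limit on the later slnor ratio, and Cab-1A missed it too and stood at 0.380 of WT at breaker. Summed CPM of PSBO, PSBQ, Cab-1A and Cab-1B, as markers of green tissue, was 191 to 204 in slnor against 196 to 201 in WT after 7 days, and 318 to 346 in slnor against 558 to 606 in WT at breaker, with none of the 4 at 0 in any group. PSBO made up most of the sum after 7 days, and its slnor ratio was 0.986, against 1.998 for PSBQ, 2.36 for Cab-1A and 1.25 for Cab-1B. The part of green tissue in the members' values was not tested. The seed marker gene Solyc06g060840 had 0.179 to 0.676 CPM in slnor against 14.2 to 16.4 CPM in WT after 7 days, and 6.25 to 7.32 CPM in slnor against 67.5 to 74.7 CPM in WT at breaker.

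Of genes of organic acid, starch and inositol synthesis, 3 were named members. PPC2 (Solyc07g062530.3, chromosome 7), a phosphoenolpyruvate carboxylase gene whose enzyme feeds carbon into malate, had 803, 794 and 837 CPM in slnor after 7 days, against 221, 209.8 and 214 CPM in WT. At breaker it had 1712, 1712 and 1622 CPM in slnor, against 1067, 1116 and 1140.0 CPM in WT. The later slnor libraries lay below both breaker groups and above the later WT libraries, and on library totals with 0.5 added their mean was 0.777 of the WT breaker mean. GBSS1 (Solyc08g083320.4, chromosome 8), the granule-bound starch synthase gene that makes amylose, had 120.0, 117 and 121 CPM in slnor after 7 days, against 29.4, 28.4 and 31.1 CPM in WT, and 156, 145 and 150.4 CPM in slnor at breaker, against 94.7, 92.2 and 95.6 CPM in WT. Every later slnor library was above every WT breaker library. INS-1P (Solyc05g051850.3, chromosome 5), an inositol-phosphate synthase gene, had 79.6, 75.4 and 72.6 CPM in slnor after 7 days, against 18.6, 18.9 and 17.9 CPM in WT, and its breaker libraries overlapped at 143 to 150.3 CPM in slnor against 139 to 149 CPM in WT. The changes over time in slnor were −1.05 ± 0.034 for PPC2, −0.34 ± 0.039 for GBSS1 and −0.96 ± 0.042 for INS-1P on the log2 scale. Of the other starch and sucrose genes of the list, the sucrose synthase gene SUS1 had a slnor ratio of 3.26 after 7 days. It stood at 0.797 of its breaker level in WT, and in slnor at 2.27 times WT at breaker. The starch synthesis gene AGPL1 was below the level limit, stood at 0.815 of its breaker level in WT and had a later slnor ratio of 2.02. Of the 3 checked genes of this list, 1 was called lower and 1 higher after 7 days in slnor, near the shares of all genes (26.0% and 26.2%), and 2 were lower in WT (32.1% of all genes).

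**Figure D2:**
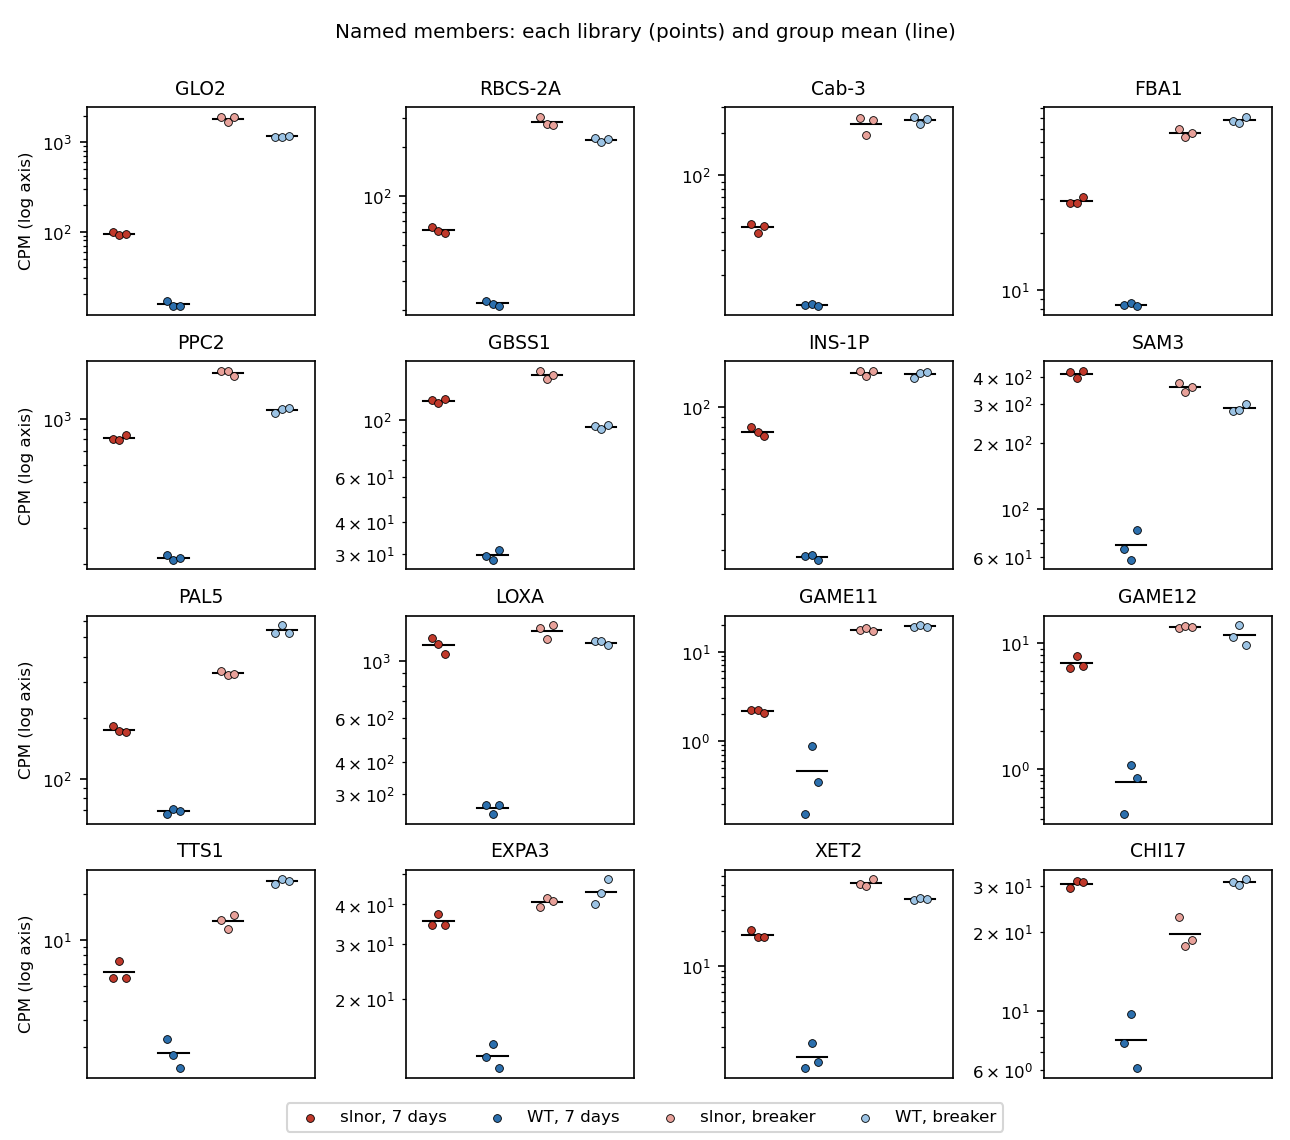
CPM (TMM-scaled, log axis) of the 16 named members in each of the 12 libraries, with points for libraries and a line for the mean of each group of 3, in the order slnor after 7 days, WT after 7 days, slnor at breaker and WT at breaker. WT after 7 days is the lowest group in all 16 panels, while slnor after 7 days ranges from far below breaker (GLO2, GAME11) to above the breaker level of WT (SAM3, GBSS1).

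In specialised metabolism, PAL5 (Solyc09g007910.4, chromosome 9), a phenylalanine ammonia-lyase gene at the entry of the phenylpropanoid pathway, had 182, 172 and 170.5 CPM in slnor after 7 days, against 67.0, 71.0 and 69.6 CPM in WT, and 339.6, 324 and 329 CPM in slnor at breaker, against 521, 571 and 524 CPM in WT. At breaker it was therefore lower in slnor in every library, and after 7 days higher in every library. It has a neighbouring copy, PAL3, with which reads may be shared, and PAL3 missed the rule at 0.529 of its breaker level in WT. The flavonoid regulator gene MYB12 and the hydroxylase gene F3H had slnor ratios of 3.58 and 3.09 after 7 days but stood at 0.178 and 0.256 of WT at breaker. The chalcone synthase genes CHS1 and CHS2 had later ratios of 1.80 and 1.96 and stood at 0.132 and 0.137 of WT at breaker. Of the 5 checked genes of this list, 3 were called higher and 1 lower after 7 days in slnor (26.2% and 26.0% of all genes), and 5 were lower in WT (32.1% of all genes).

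Both glycoalkaloid members were low in count. GAME11 (Solyc07g043420.3, chromosome 7), a dioxygenase gene of glycoalkaloid synthesis, had 2.23, 2.23 and 2.03 CPM in slnor after 7 days, against 0.152, 0.876 and 0.348 CPM in WT, where the 3 libraries held 84 counts in all. At breaker it had 17.4, 18.3 and 17.1 CPM in slnor, against 18.6, 19.7 and 18.96 CPM in WT. GAME12 (Solyc12g006470.2, chromosome 12), the aminotransferase gene of the same pathway, had 6.29, 7.83 and 6.61 CPM in slnor after 7 days, against 0.438, 1.07 and 0.853 CPM in WT, and 13.1, 13.6 and 13.5 CPM in slnor at breaker, against 11.2, 13.8 and 9.58 CPM in WT. GAME11 fell 8.12-fold with time in slnor and GAME12 1.94-fold, against 40.4-fold and 14.4-fold lower levels in WT. Of the 7 checked glycoalkaloid genes, 6 were called lower after 7 days in slnor (26.0% of all genes) and 7 in WT (32.1% of all genes). The 5 that are not members missed the level limit, with WT breaker means of at most 2.92 with 0.5 added. They also missed the limit on the later slnor ratio, at 2.09 for GAME1, 1.34 for GAME6, 1.30 for GAME18, 1.19 for GAME17 and 1.04 for GAME4. Their WT means after 7 days, at most 0.605 with 0.5 added, were near the floor.

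LOXA (Solyc08g014000.3, chromosome 8), a lipoxygenase gene of fatty acid oxidation, was among the most abundant members and had 1232, 1165 and 1071 CPM in slnor after 7 days, against 271, 249.9 and 270.3 CPM in WT, and 1354, 1221 and 1387 CPM in slnor at breaker, against 1196, 1199 and 1154 CPM in WT. The later slnor libraries overlapped with the breaker libraries of both genotypes (log2 change in slnor −0.19 ± 0.051, called lower, and in WT −2.17 ± 0.054). LOXA was the 1 member among 4 checked genes of the flavour volatile list. The lipoxygenase gene LOXC stood in slnor at 0.065 of WT at breaker and 0.180 after 7 days, and in WT at 0.3301 of its breaker level, just over the limit. LOXD and AADC1A stood in WT at 1.15 and 0.925 of breaker, with later slnor ratios of 2.12 and 1.34. SAM3 (Solyc09g008280.2, chromosome 9), which encodes an enzyme making S-adenosylmethionine, the methyl donor and ethylene precursor, had 419.9, 397 and 427 CPM in slnor after 7 days, against 65.6, 58.4 and 80.4 CPM in WT, and 376, 343 and 362 CPM in slnor at breaker, against 280.4, 282 and 303 CPM in WT. All later slnor libraries lay above all breaker libraries, a change of 0.20 ± 0.075 over time in slnor. Its call as higher was lost with library totals alone (0.11), with DESeq2 (0.21), and without slnor replicate 1 (0.19) or 3 (0.18) after 7 days or slnor replicate 2 (0.17) or 3 (0.21) at breaker. TTS1 (Solyc12g006530.2, chromosome 12), a triterpene synthase gene of cuticular wax, had 5.68, 7.34 and 5.68 CPM in slnor after 7 days, against 2.25, 1.78 and 1.45 CPM in WT, and 13.6, 11.8 and 14.6 CPM in slnor at breaker, against 23.2, 25.0 and 24.4 CPM in WT. As with PAL5, slnor was below WT in every breaker library and above it in every later one. Summed CPM of the epidermis markers CER6, CD1 and GPAT6 was 110.5 to 117 in slnor against 58.5 to 61.4 in WT after 7 days, and 72.3 to 78.4 in slnor against 286 to 301 in WT at breaker. CER6 made up most of this sum. At breaker CER6 stood at 0.277 of WT in slnor, whereas CD1 stood at 2.72 times and GPAT6 at 1.94 times WT. After 7 days all 3 markers were higher in slnor, at 1.91 times WT for CER6, 9.54 for CD1 and 2.91 for GPAT6. In WT, with 0.5 added to library-total CPM, CD1 and GPAT6 were near the floor at breaker (1.21 and 0.861) and after 7 days (0.524 and 0.782). The markers thus differed in direction at breaker but not after 7 days. Their part in the members' values was not tested.

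Wall and defence genes completed the named set, with names found after the values had been seen. Of the 5 checked wall genes of the list, 0 were members. After 7 days they stood in slnor at 0.126 (PG2a), 0.482 (MAN4a), 0.166 (TBG4), 0.138 (CEL2) and 0.0277 (XYL1) of WT. In slnor 4 of the 5 were called higher and 1 lower after 7 days (26.2% and 26.0% of all genes), and 2 were lower in WT (32.1% of all genes). EXPA3 (Solyc03g031840.3, chromosome 3), an expansin gene of wall loosening, had 34.5, 37.2 and 34.3 CPM in slnor after 7 days, against 13.1, 14.4 and 11.995 CPM in WT, and 39.4, 42.0 and 41.0 CPM in slnor at breaker, against 40.02, 43.4 and 48.1 CPM in WT. It was called lower with time in slnor (−0.21 ± 0.070), a call lost without slnor replicate 1 (−0.19) or 3 (−0.18) after 7 days or slnor replicate 2 (−0.19) at breaker. XET2 (Solyc07g009380.4, chromosome 7), a xyloglucan endotransglycosylase gene of wall remodelling, had 20.4, 17.8 and 17.6 CPM in slnor after 7 days, against 1.31, 2.16 and 1.49 CPM in WT, and 50.9, 48.7 and 55.6 CPM in slnor at breaker, against 36.6, 38.2 and 37.7 CPM in WT. Its 11.2-fold difference after 7 days was the largest among the 16 named members. CHI17 (Solyc02g082930.3, chromosome 2), a chitinase gene, had 29.5, 31.4 and 31.0 CPM in slnor after 7 days, against 7.56, 9.80 and 6.07 CPM in WT, and 22.8, 17.7 and 18.7 CPM in slnor at breaker, against 31.1, 30.3 and 31.8 CPM in WT. The later slnor libraries were at the WT breaker level and above all slnor breaker libraries (0.64 ± 0.115).

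Of the 156 members with no name, Solyc04g077020.3 and Solyc09g075210.3 had the highest mean CPM in WT at breaker. Solyc04g077020.3 had 1162, 1125 and 1225 CPM in slnor after 7 days, against 169.9, 165 and 173 CPM in WT, and 1147, 1143 and 1208 CPM in slnor at breaker, against 792, 783 and 831 CPM in WT. Solyc09g075210.3 had 817, 821 and 792 CPM in slnor after 7 days, against 205, 206 and 199.996 CPM in WT, and 829.7, 882 and 809 CPM in slnor at breaker, against 707, 645 and 672 CPM in WT. In both, the 2 slnor groups overlapped and neither change over time in slnor was called (0.01 and −0.05). With library totals alone both were called lower, at −0.084 for Solyc04g077020.3 and −0.14 for Solyc09g075210.3. The ratio of slnor over WT after 7 days was highest for Solyc06g035580.3 and Solyc07g062130.3. Solyc06g035580.3 had 7.54, 8.22 and 8.54 CPM in slnor after 7 days, against 0, 0.114 and 0 CPM in WT, where the only counts, 7 in all, came from 1 library. At breaker it had 4.20, 4.39 and 6.17 CPM in slnor, against 6.80, 7.56 and 7.83 CPM in WT. Solyc07g062130.3 had 74.1, 71.5 and 63.0 CPM in slnor after 7 days, against 4.17, 4.46 and 4.16 CPM in WT, and 60.1, 47.1 and 57.6 CPM in slnor at breaker, against 48.9, 47.8 and 48.5 CPM in WT. Both stood higher after 7 days than at breaker in slnor and lower in WT.

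The rule set no limit on the change over time within slnor but used both slnor means, so the counts below describe the members. The ratio of slnor after 7 days over slnor at breaker ran from 0.0337 to 1.76 with a median of 0.564. It was under 0.25 in 21 members, between 0.25 and 0.5 in 48, between 0.5 and 1 in 84, and 1 or more in 19. By edgeR's quasi-likelihood test at an adjusted p under 0.05, 129 members (75%) were lower after 7 days in slnor, against 26.0% of all 20070 genes tested, and 17 were higher, against 26.2% of all genes. The other 26 did not pass. On library totals, all slnor libraries after 7 days lay below all slnor breaker libraries in 142 members, against 37.9% of all genes, and above them in 14, against 22.5% of all genes. In 17 members, against 2.73% of all genes, every slnor library was higher after 7 days than at breaker and every WT library lower, with both changes called. These are descriptions, since the rule asked for the fall in WT, while only 32.1% of all genes were called lower in WT. Of the 16 named members, 14 were called lower and 2, SAM3 and CHI17, were called higher. Of the 321 comparison genes, 315 were called lower in slnor and 1 higher. The median log2 change over time in slnor was −0.76 for the members, −1.35 for the comparison genes and −0.01 for all genes tested.

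**Figure D3:**
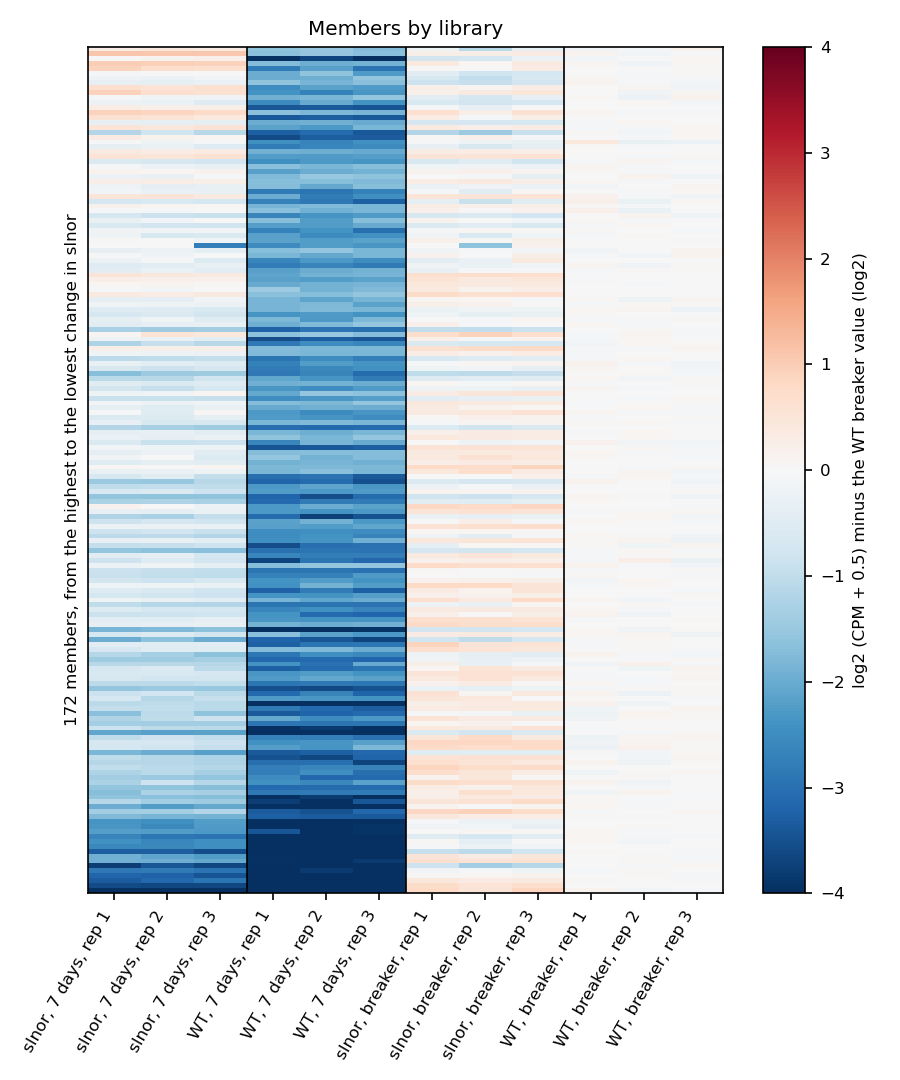
Level of each of the 172 members (lines) in each of the 12 libraries (columns), as log2 (CPM + 0.5) minus the value of the WT breaker mean, sorted by the log2 change over time in slnor. WT after 7 days is low throughout, as the rule required, whereas slnor after 7 days grades from above the WT breaker level at the top to far below it at the bottom.

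Set beside the change in WT, the change in slnor had the same sign in most members but was smaller. The log2 change in slnor was a median 29.7% of that in WT (quartiles 8.80% and 42.4%) in the members and 58.2% (quartiles 44.0% and 74.7%) in the comparison genes. Across the 172 members the log2 changes in the 2 genotypes had a Pearson correlation of 0.63, and across the 321 comparison genes 0.72. The limits of the rule force the change in slnor to lie above that in WT in every member. The comparison genes are those that missed the later slnor limit, so the gap between the 2 medians follows from how the genes were chosen. All these values are descriptions across genes, which share their libraries and are not independent. GLO2 and GAME11, with log2 changes of −6.25 and −5.34 in WT, also had large falls in slnor (−4.28 and −3.02). Solyc06g035580.3, with only 7 counts in WT after 7 days, was called higher with time in slnor. After 7 days, 31 members in slnor stood above the WT breaker mean on library totals, and 25 with TMM.

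**Figure D4:**
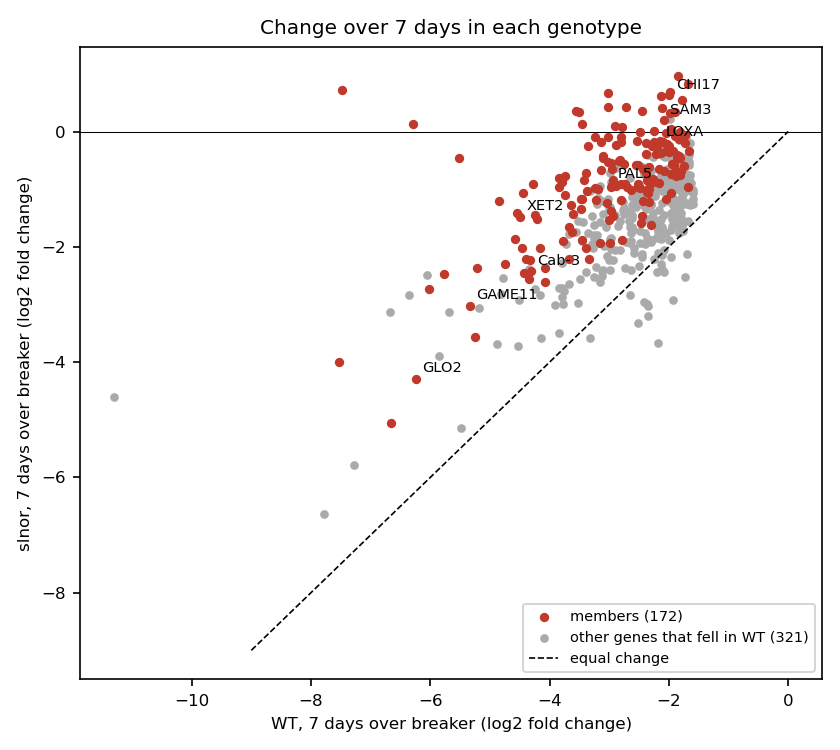
Log2 fold change of 7 days over breaker in slnor (vertical) against that in WT (horizontal) for the 172 members and the 321 comparison genes, with 8 members named and a dashed line of equal change. At a given change in WT most members lie higher than the comparison genes, which follows from their choice by the later slnor ratio, and 17 of those above 0 were called higher in slnor.

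Contrasts that the rule used are given only as counts. All 172 members were called lower after 7 days in WT (32.1% of all genes were), higher in slnor than in WT after 7 days (28.5% of all genes), and higher in the interaction, the change over time in slnor minus that in WT (21.8% of all genes). Slnor was called higher than WT at breaker in 74 members (25.6% of all genes) and lower in 40 (23.7%), and 58 did not pass. With library totals alone these counts were 91 and 27, and the median over all genes tested was 0.20 in place of 0.02 on the log2 scale. The median log2 difference at breaker was 0.14 for the members and −0.42 for the comparison genes. On library totals 123 of the 172 breaker means were above WT, and with TMM 107 were.

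Length, position and replicate spread did not enter the rule, though the levels behind the breaker FPKM and the coefficient of variation did. The gene length implied by the deposited FPKM values had a median of 1682 bases (quartiles 1209 and 2235), against 1520 for the comparison genes and 1668 for the 12815 genes with the same breaker level. Per length, the median member stood at 12.6 FPKM in WT at breaker, against 17.7 FPKM for those 12815 genes. By the chromosome number in the identifier, chromosome 7 held 24 members (14%) and chromosome 3 held 23 (13.4%), against 7.51% and 10.6% of the 12815 genes, while chromosome 1 held 12 (6.98%, against 13.4%). Of the comparison genes, chromosome 7 held 7.48%, chromosome 3 held 9.66% and chromosome 1 held 9.97%. Within 5 genes of another member in identifier order lay 16 members (9.30%), in 8 pairs and no longer run, against 12.8% of the comparison genes. The median coefficient of variation of CPM was 6.25% for members and 8.23% for comparison genes in slnor after 7 days, 12.02% and 9.74% in WT after 7 days, 6.70% and 7.51% in slnor at breaker, and 5.22% and 5.55% in WT at breaker.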

How the data were processed

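The authors deposited raw counts per gene, and for each library a table of values taken here as FPKM. Those deposited tables name no unit, but count, value and library total gave 1 gene length within 1% in all libraries, for 100% of 7290 genes (at least 1000 counts per library). These FPKM values served only for lengths and levels per length. Per the submitters' processing notes, HISAT, UMI-tools, StringTie and edgeR were used. Their roles, the build, the annotation and the strand setting are not given in the labels or files.

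Counts were fitted in R 4.3.3 with edgeR 4.0.16 (glmQLFit, glmQLFTest), TMM scaling, filterByExpr (20070 genes kept) and 1 model of the 4 groups. Adjusted p-values are Benjamini-Hochberg over all genes tested. SE is the log2 fold change divided by the root of F. On simulated counts of the 20070 genes, 200 of 200 genes changed 2.5-fold were recovered for the change over time in slnor, with 10 false calls. All genes were simulated at 1 common spread (coefficient of variation 7.39%), and the changed genes were drawn from those above 1 CPM. This check therefore does not cover smaller changes or genes with a larger spread. DESeq2 1.42.0 was an alternative. No 2 replicates were duplicates, since every pair differed beyond counting noise (lowest chi-square over its degrees of freedom 4.66, highest 14.2).

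Members and lists were chosen with earlier results of these data known. Named are members with a checked list name, the 2 unnamed members highest in WT at breaker and the 2 with the highest slnor ratio after 7 days. No sequences are printed, since none was used here.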

Additional observations from a re-analysis of the deposited data

Results flagged for a closer look

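The change over time was higher in slnor than in WT in all 172 members by edgeR's interaction test. The members were chosen on the means behind this difference, so the count describes the choice.

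In 17 members every slnor library was higher after 7 days than at breaker, while every WT library was lower, with both changes called. Of all 20070 genes tested, 548 (2.73%) did so. Only 6449 (32.1%) of those genes were called lower in WT, a fall that the rule required of every member, so the 2 shares have unlike bases. The log2 change of the 17 members in slnor lay between 0.20 and 0.97, so none reached 2-fold. SAM3, CHI17, Solyc06g035580.3 and Solyc07g062130.3 are among the 17, and the call of SAM3 was lost under the alternatives named above.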

How the results depend on the processing

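The rule found 168 genes on TMM-scaled CPM, of which 160 were members, 221 and 144 with 0 or 1 CPM added in place of 0.5, 239 and 133 with a later slnor ratio of at least 2 or 3, 125 and 240 with a WT ratio of at most 0.25 or 0.5, and 122 with a breaker mean of at least 10 CPM before 0.5 was added. Without 1 library at a time it found 170 to 181 genes, and 164 to 171 of the members stayed among them. A requirement that every pair of libraries meet the limits, added after the data were seen, kept 122. Members called lower over time in slnor numbered 126 to 130 without 1 library at a time, and members called higher 13 to 17. With a change of at least 2-fold also required, an alternative added later, 59 were lower and 0 higher. The share of all genes at that limit was not counted, so these 2 counts only describe the members. The median log2 change in slnor was −0.85 with library totals alone against −0.76, and −0.78 to −0.75 without 1 library at a time. For Solyc04g077020.3, with a log2 change of 0.01 in slnor, the sign turned to −0.084 with library totals alone, where the median over all genes tested was −0.0995 in place of −0.0098, and the range without 1 library at a time was −0.025 to 0.034. The same replicate numbers did not pair the samples (correlations of deviations −0.07 to 0.07), and with the replicate block 130 members were lower and 17 higher over time in slnor. All other counts of calls stayed within 1.5 times the values given. Counts under 30 in WT after 7 days limit 4 members.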

Other observations

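Solyc01g101020.4, singled out after its values were seen, was the 1 member whose slnor and WT libraries overlapped after 7 days. It had 137, 133 and 19.7 CPM in slnor after 7 days, against 22.5, 28.2 and 26.6 CPM in WT, and 138, 44.4 and 152 CPM in slnor at breaker, against 134, 138 and 134 CPM in WT. In slnor, replicate 3 after 7 days and replicate 2 at breaker stood apart from the other libraries of their groups, whereas the WT libraries lay close together at both stages.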
